A study of Mus musculus with 2 samples.

Results

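Nog Lef1 stroma was a small set of stromal barcodes in single-cell RNA sequencing of whole mouse uterus on gestational day 4. A barcode stands for 1 cell, and its unique molecular identifiers (UMIs) count RNA molecules. In the Mettl14 f/f library, 146 of 4122 stromal barcodes belonged to the set, which is 3.54% (95% exact interval 3.0% to 4.15%). The library held 8164 barcodes, of which 7610 passed the filters, and both libraries together held 14825. Stroma meant barcodes with at least 3 of Pdgfra, Dcn, Hand2, Hoxa10, Hoxa11 and Islr and no UMI of Epcam, Pecam1, Ptprc or Myh11. A stromal barcode was a member with at least 2 of Nog, Lef1, Col7a1, Cpxm2 and Nkd2 detected, provided that this count was above that of each of 2 rival lists. The rival lists were Scnn1b, Slc6a2, Hsd11b2, Stra6 and Map2, and Angptl7, Fst, Hhip, Vit and Maob. These 15 genes, read in the same cells, chose the members, so their levels are given as a description and support nothing.

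The study compared the uterus of a sample of Mettl14 genotype d/d with that of a sample of genotype f/f. By common usage d/d stands for a deleted gene and f/f for intact alleles that carry recombination sites, the control, but the labels do not spell this out. Mettl14 is a subunit of the enzyme that writes N6-methyladenosine on RNA. Each genotype had 1 library, and the number of animals behind it and the promoter that drove the deletion are not given in the sources used here. No test across animals was therefore possible, no p-value is given, and every interval covers counting error only. The other stroma of the f/f library comprised 969 barcodes of a Scnn1b Slc6a2 set, 1899 of an Angptl7 Hhip set and 1108 in no set. Members had a median of 7136 UMIs per barcode, with 1111 as the lowest and 24188 as the highest, against a median of 6583.5 in other stroma. In sum the members held 1127494 UMIs and the other stroma 28314054. The libraries shared 8 barcodes, and 0 of the members were among them.

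The stroma under the uterine lining is patterned by secreted signals during early pregnancy. Wnt proteins bind Frizzled and LRP receptors and stabilise β-catenin, which turns on target genes together with the transcription factors LEF1 and TCF7. Several of these targets, among them Axin2, Nkd1 and Nkd2, restrain the pathway in turn. Bone morphogenetic proteins (BMPs) act in parallel, drive decidualization of the stroma, and are held in check by secreted antagonists such as noggin. The markers of the set came from both pathways and from the matrix. Nog encodes noggin, Lef1 a Wnt transcription factor, Nkd2 an inhibitor of Dishevelled, Col7a1 the collagen of anchoring fibrils under epithelia, and Cpxm2 a secreted member of the carboxypeptidase family.

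In the GENCODE M21 annotation of the mouse genome GRCm38, the mm10 build that the submitters' processing notes name, Nog lies at chr11:89300638-89302332 on the minus strand. Lef1 lies at chr3:131110471-131224356 and Col7a1 at chr9:108953586-108984875, both on the plus strand. Cpxm2 lies at chr7:132032687-132154739 and Nkd2 at chr13:73818534-73847631, both on the minus strand. Since LEF1 and TCF7 recognise the core CTTTGA, these 6 letters were sought on both strands in the 250 bases before each RefSeq start (build GRCm38.p6) of the 5 markers and of Nkd1, Axin2, Tcf7, Ccnd1, Cd44, Dkk2 and Wnt5a. The RefSeq table held 13 windows for 9 of these 12 genes, the others being Nog, Ccnd1 and Wnt5a. The core was in 1 of the 13 windows, and in 13.8% of all 32851 windows of that length. That window precedes an internal start of Lef1, lies at chr3:131156044-131156293 on the plus strand inside the gene, and overlaps no annotated exon of Lef1. It is shown because it is the one window with a match, and its 2 matches, in capitals, both read as the reverse complement and begin 180 and 120 bases before the start.
Lef1 internal start: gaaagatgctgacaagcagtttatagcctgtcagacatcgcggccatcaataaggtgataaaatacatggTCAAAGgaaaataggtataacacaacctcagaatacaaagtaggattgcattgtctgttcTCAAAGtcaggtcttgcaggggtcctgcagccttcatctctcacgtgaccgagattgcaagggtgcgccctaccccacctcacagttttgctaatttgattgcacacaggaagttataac
A match describes letters and not a bound site, and the 3′ tags counted here do not tell the starts of Lef1 apart.

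Among the members, 15 had 2 of the 5 markers, 33 had 3, 63 had 4 and 35 had all 5. Lef1 was found in 134 of the 146 members (91.8%), Col7a1 in 121, Nog and Cpxm2 in 103 each, and Nkd2 in 95 (65.1%). Per member barcode, Lef1 had a lowest value of 0, a median of 2 and a highest value of 12 UMIs. Nog reached 7 UMIs, Cpxm2 8, Nkd2 7 and Col7a1 6, each with a median of 1, so most members carried their markers at 1 or a few molecules. Levels are in CPM, the summed UMIs of a gene scaled to the total of its set. Nog stood at 152 CPM in members and 18.6 CPM in other stroma. Lef1 stood at 293 CPM in members and 59.8 CPM in other stroma, and Nkd2 at 128 CPM in members and 11.5 CPM in other stroma. Hhip, an inhibitor of hedgehog ligands, had 0 UMIs in the 146 members, which allows up to 2.66 CPM, against 43.0 CPM in other stroma. Fst, which encodes the activin-binding protein follistatin, had 47.9 CPM in members and 286 CPM in other stroma. Slc6a2, a noradrenaline transporter, had 122 CPM in members and 90.6 CPM in other stroma, and Hsd11b2, which inactivates glucocorticoids, had 832 CPM in members and 790 CPM in other stroma.

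Shares of barcodes with a UMI depend on depth, so barcodes were also thinned to 2000 UMIs each, which left 145 members and 3804 other stromal barcodes. At that depth Lef1 was seen in 53.1% of members, 16.6% of the Scnn1b Slc6a2 set, 3.80% of the Angptl7 Hhip set and 12.8% of barcodes in no set. Nog was seen in 30.3% of members (23.0% to 38.5%), against 2.89% of other stroma, and without thinning in 70.5% of members and 9.68% of other stroma. In 187 thinned immune barcodes, which should lack these genes, Nog, Col7a1 and Cpxm2 were seen in 0, which allows a share of up to 1.60%, Lef1 in 1.60% and Nkd2 in 1.07%. The median of the immune barcodes before thinning was 2290.5 UMIs. These immune shares are only a rough guide to the level of free RNA. Barcodes chosen without stromal UMIs may hold less of it, and Lef1 made by the immune cells themselves cannot be told apart from it. The rule itself sets the members above these shares.

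**Figure D1:**
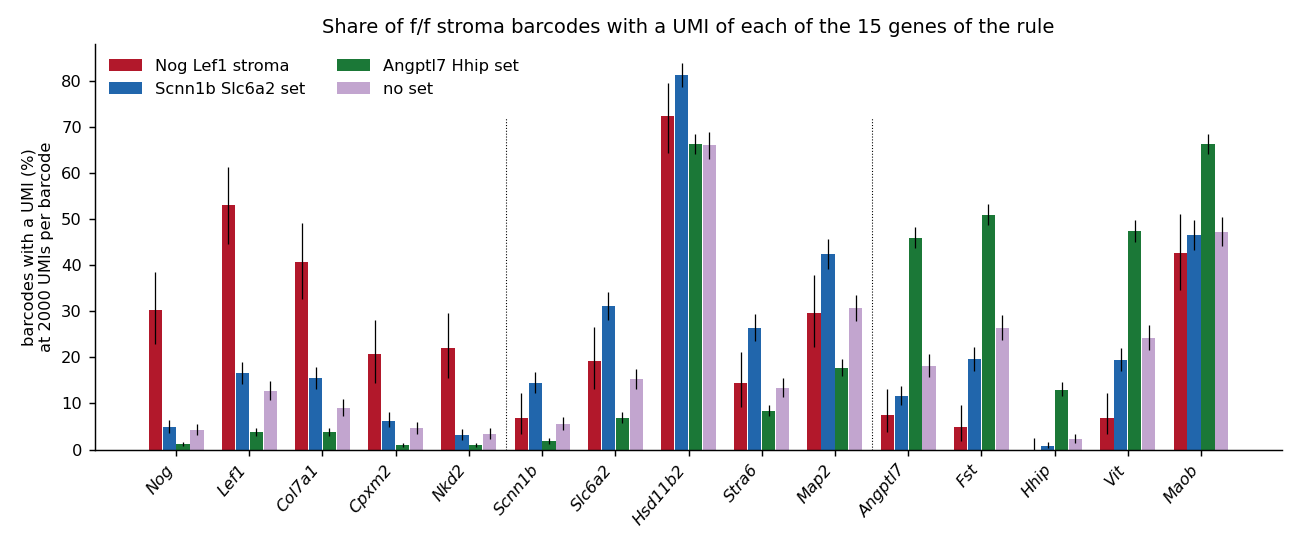
Share of f/f stromal barcodes with at least 1 UMI (y axis, percent) of the 15 genes of the rule (x axis), after each barcode was thinned to 2000 UMIs. Bars are Nog Lef1 stroma (145 barcodes), the Scnn1b Slc6a2 set, the Angptl7 Hhip set and barcodes in no set, and error bars are 95% exact binomial intervals. The 5 genes on the left chose the members and had their highest bars there (Lef1 53.1%), whereas Hsd11b2 was seen in at least 66.0% of each set.

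Of 897 stromal barcodes with at least 2 of the 5 markers, 146 were members, 381 were in the Scnn1b Slc6a2 set, 109 in the Angptl7 Hhip set and 261 in no set. Of those in no set, 192 had exactly as many Nog Lef1 markers as of their leading rival list and so lay directly outside the threshold. Directly inside it were 99 members with a margin of 1 gene, while 39 had a margin of 2, 7 of 3 and 1 of 4. Each marker was then left out of the choice, so that members were picked with the other 4. Lef1 was seen in 77.4% of 53 barcodes picked without it and in 25.7% of the rest, and Nog in 46.9% of 81 picked barcodes and 11.1% of the rest. Col7a1 was seen in 60.3% of 63 picked barcodes and 23.7% of the rest, Cpxm2 in 46.3% of 80 and 11.1% of the rest, and Nkd2 in 38.6% of 83 and 8.44% of the rest. In barcodes picked without the gene in question, log2 differences in CPM lay between 1.58 (Col7a1) and 2.58 (Nkd2). The 5 markers were grouped with these cells already known, so this too is a description.

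Clustering of the f/f stroma without the 15 genes put 108 of the 146 members (74.0%) into 1 cluster. That cluster held 522 barcodes, so members made up 20.7% of it, while 265 barcodes were of the Scnn1b Slc6a2 set and 7 of the Angptl7 Hhip set. Among the nearest neighbours of a member, 18.1% were members on average, against 6.6% around a barcode of the Scnn1b Slc6a2 set, 0.545% around one of the Angptl7 Hhip set, and 3.54% of all stroma. By these counts most members shared a cluster with barcodes of the Scnn1b Slc6a2 set and did not form a cluster of their own. The defining genes of stroma were present in unequal amounts. Dcn, the matrix proteoglycan decorin, had 897 CPM in members and 1939 CPM in other stroma. Hand2, a progesterone-dependent transcription factor of the stroma, had 223 CPM in members and 140 CPM in other stroma. Hoxa10, which is required for implantation, had 802 CPM in members and 621 CPM in other stroma.

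Beyond the 15 genes, 146 of the 10758 genes with at least 100 UMIs in stroma (1.36%) were at least 1.5-fold higher in members than in other f/f stroma with 50 UMIs or more in the higher sum. On the same terms 1022 (9.50%) were lower, of which 436 had an interval wholly below equal levels. The counts of higher and lower genes cannot be set against each other, because 50 UMIs is a far higher level in the small sum of the members than in that of other stroma. With at least 50 CPM in the higher group in place of 50 UMIs, 126 genes were higher and 141 lower. These genes were read in the same cells as the rule, so their folds describe the set and are no test of it. The median gene was 0.05 higher in members on the log2 scale.

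The highest-ranked gene was Dkk2, which encodes a secreted ligand of the LRP co-receptors of Wnt. It had 55.0 CPM (42.2 to 70.5) in members and 6.85 CPM (5.92 to 7.89) in other stroma, and was thus 8.03-fold higher in members. Dkk2 was held by 31 members, with 11 UMIs in the highest, so it marked a minority of them. Tnc, the matrix glycoprotein tenascin-C, was found in 28.1% of members and 5.91% of other stroma, at 64.7 CPM in members and 13.9 CPM in other stroma. Rxfp1, the receptor for relaxin, was more widespread, in 115 members (78.8%) with a median of 2 and a highest value of 15 UMIs. Its level was 361 CPM (327 to 398) in members and 108 CPM (104 to 112) in other stroma. Prdm1, which encodes the transcriptional repressor BLIMP1, was found in 117 members, at 271 CPM in members and 96.3 CPM in other stroma. Mgp, matrix Gla protein, was found in 137 members with a median of 8 UMIs, at 1055 CPM in members and 445 CPM in other stroma.

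Ramp3, which alters the ligand preference of the calcitonin receptor family, had 69.2 CPM in members and 21.1 CPM in other stroma. Calcrl, its receptor partner, had 52.3 CPM in members and 23.7 CPM in other stroma. Cpe, a carboxypeptidase that processes prohormones, had 233 CPM in members and 92.3 CPM in other stroma. Pappa, a protease that frees insulin-like growth factors from their binding proteins, had 47.9 CPM in members and 13.5 CPM in other stroma, but 25 members held all of its UMIs. Cyp1b1, a cytochrome P450 that hydroxylates estradiol, had 85.1 CPM in members and 30.1 CPM in other stroma. Ednrb, an endothelin receptor, had 135 CPM in members and 53.4 CPM in other stroma, and the gap junction gene Gja1 had 273 CPM in members and 116 CPM in other stroma. The remaining genes among the 20 highest-ranked were Ociad2, Cpne5, Tpbg, Tex15, Nkd1, Fxyd6, Gatm, Ccnd1, Tcf7, 3632451O06Rik and Cd83, with log2 differences between 1.42 (Cd83) and 2.16 (Ociad2).

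At the other end, Ly6a, which encodes the surface antigen Sca-1, was found in 28.1% of members and 60.7% of other stroma. It had 79.8 CPM (64.2 to 98.1) in members and 370 CPM (363 to 377) in other stroma. Ctla2a, which encodes a cysteine protease inhibitor, was still held by 127 members but had 1204 CPM in members and 3362 CPM in other stroma. The secreted glutathione peroxidase Gpx3 had 56.8 CPM in members and 201 CPM in other stroma, and the lipid carrier Apoe had 44.3 CPM in members and 160 CPM in other stroma. Adamts1, a secreted protease of the matrix, had 72.7 CPM in members and 225 CPM in other stroma. C3, the central complement component, had 5.32 CPM in members and 31.7 CPM in other stroma. In the rival sets C3 was at 6.84 CPM (Scnn1b Slc6a2) and 10.7 CPM (Angptl7 Hhip), and in barcodes of no set at 93.9 CPM, which gave most of its level in other stroma. The rest of the 20 lowest were Plce1, Fam46c, Dpep1, Entpd2, Scara5, Adamts15, Ogn, Meg3, Gpc3, Ly6c1, Steap4, Bnc2, Fancc and Tiparp, with log2 differences between -3.18 (Dpep1, -5.46 to -1.62, 3 UMIs in 1 member) and -1.59 (Tiparp).

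**Figure D2:**
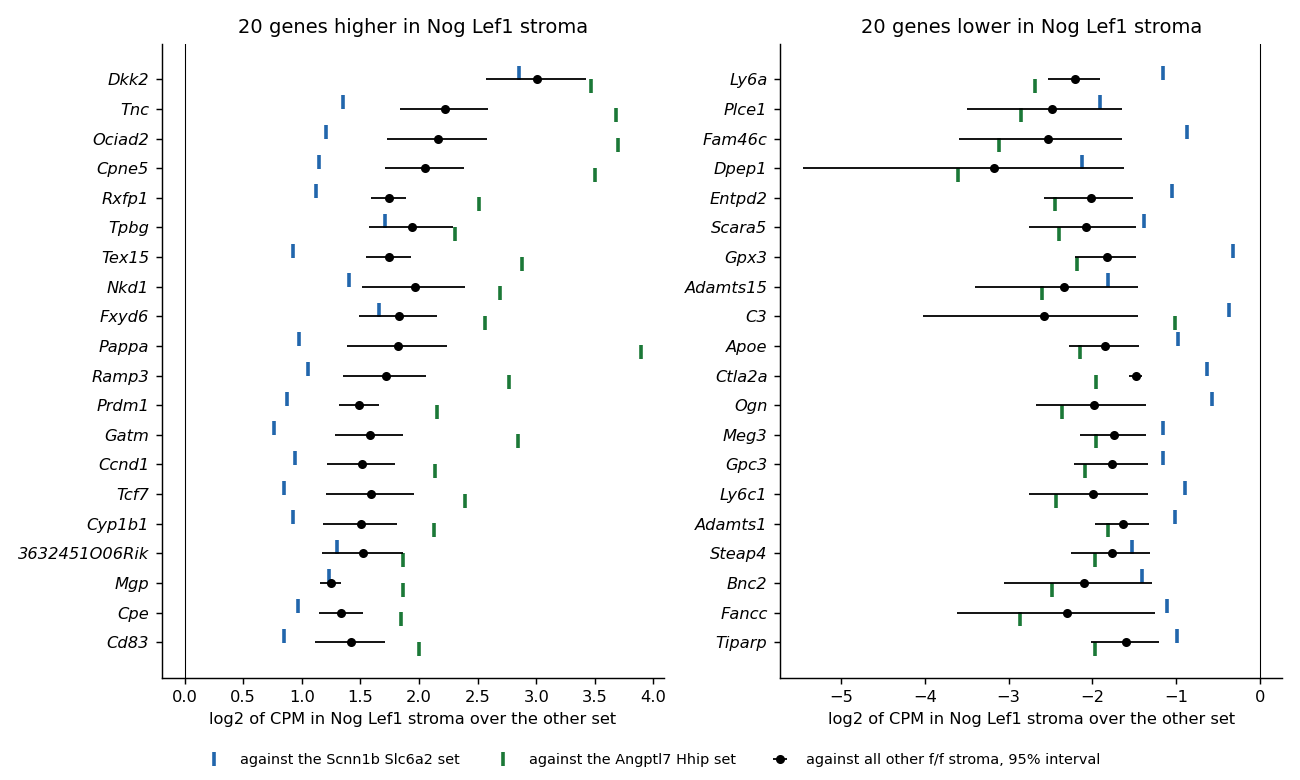
Log2 of the CPM in Nog Lef1 stroma over that in another set of f/f stroma (x axis) for the 20 genes that ranked highest and the 20 that ranked lowest, with a gene per row. Black points with 95% intervals are against all other stroma, blue ticks against the Scnn1b Slc6a2 set and green ticks against the Angptl7 Hhip set. Dkk2 was nearly as far from the Scnn1b Slc6a2 set (2.85) as from the Angptl7 Hhip set (3.47), while Gpx3 was at -0.32 and -2.19.

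The Wnt genes are given by role, on the same terms. Over all genes 1.36% were higher and 9.50% lower, the level to read the counts against. Of 8 measured Wnt ligands and R-spondins, 1 was higher and 1 lower, with a list median of 0.44 on the log2 scale against 0.05 for all genes. Wnt5a, a ligand best known for β-catenin-independent signals, was found in 135 members with a median of 4 and a highest value of 18 UMIs. Wnt5a stood at 582 CPM (538 to 628) in members and 278 CPM (272 to 284) in other stroma. Rspo3, which amplifies Wnt signals at the receptor, had 7 UMIs and 6.21 CPM in members and 18.6 CPM in other stroma. Wnt16 had 40.8 CPM in members and 12.4 CPM in other stroma, and Wnt6 had 25.7 CPM in members and 8.23 CPM in other stroma. Their intervals did not overlap, yet with 46 and 29 UMIs in members they were under the 50 UMIs that a call needs. Wnt4, a ligand of decidualization, had 9.76 CPM (4.87 to 17.5) in members and 6.99 CPM (6.05 to 8.04) in other stroma.

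Of 12 measured Wnt receptors, 0 were higher and 3 were lower, with a median of -0.12, beside 9.50% lower over all genes. The lower ones were Fzd7, Fzd8 and Lrp4, with 12, 3 and 2 UMIs in members. Lrp6, a co-receptor of canonical Wnt signals, had 71.0 CPM in members and 78.3 CPM in other stroma, and Fzd2 had 211 CPM in members and 227 CPM in other stroma. Of 10 measured secreted or membrane antagonists, Dkk2 was higher and 2 were lower, with a median of -0.02. Sfrp4 had 31.0 CPM in members and 97.6 CPM in other stroma, and Dkk3 had 34.6 CPM in members and 56.3 CPM in other stroma. Frzb, another secreted Wnt-binding protein, had 39.0 CPM in members and 14.0 CPM in other stroma, and the membrane inhibitor Apcdd1 had 19.5 CPM in members and 3.39 CPM in other stroma. Both were under 50 UMIs in members and had intervals that did not overlap.

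Among transcription factors and feedback targets, 5 of 15 measured genes beyond Lef1 and Nkd2 were higher and 0 lower, with a median of 0.32. Over all genes 1.36% were higher and 9.50% lower. Tcf7, a relative of Lef1, had 67 UMIs in 50 members, or 59.4 CPM, against 19.7 CPM in other stroma. Axin2, part of the complex that degrades β-catenin, had 68.3 CPM (53.9 to 85.4) in members and 26.0 CPM (24.1 to 27.9) in other stroma. Nkd1, the relative of Nkd2, had 46.1 CPM (34.4 to 60.5) in members and 11.8 CPM (10.6 to 13.1) in other stroma. Ccnd1, which encodes the cell cycle regulator cyclin D1, had 99.3 CPM in members and 34.9 CPM in other stroma. Cd44, the hyaluronan receptor, had 213 CPM in members and 113 CPM in other stroma. The list did not move as a whole: Myc had 154 CPM in members and 143 CPM in other stroma, Znrf3 had 14.2 CPM in members and 13.4 CPM in other stroma, and Tcf7l2 had 58.5 CPM in members and 69.2 CPM in other stroma. Ctnnb1, which encodes β-catenin itself, had 306 CPM in members and 251 CPM in other stroma.

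The BMP genes are given in the same way, beside 1.36% higher and 9.50% lower over all genes. Of 9 measured BMP, activin and TGF-β ligands, 1 was higher and 0 lower, with a median of 0.28. Bmp7 had 102 CPM (84.2 to 122) in members and 56.8 CPM (54.1 to 59.7) in other stroma. Bmp2, the ligand required for decidualization, had 15.1 CPM (8.78 to 24.1) in members and 10.1 CPM (8.93 to 11.3) in other stroma. Beyond Nog and Fst, 9 antagonists were measured, with 0 higher, 3 lower and a median of -0.43. Smoc1 had 55.9 CPM in members and 128 CPM in other stroma, and the pseudoreceptor Bambi had 9.76 CPM in members and 26.2 CPM in other stroma. The third, Bmper, had 2 UMIs in members. Chrd, which encodes chordin, another inhibitor of BMPs, had 6.21 CPM in members and 5.12 CPM in other stroma. Of 11 receptors, 0 were higher and 1 was lower (Acvrl1, 13 UMIs in members). Of 6 target genes 1 was higher, Smad7, with 49.7 CPM in members and 32.5 CPM in other stroma, while Id1 had 27.5 CPM in members and 21.6 CPM in other stroma. Against the Scnn1b Slc6a2 set alone, 0 of 7 ligands, 0 of 8 receptors and 0 of 4 target genes were called. Of 7 antagonists 0 were higher and 2 lower than in that set, beside 1.07% higher and 3.95% lower over all genes.

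**Figure D3:**
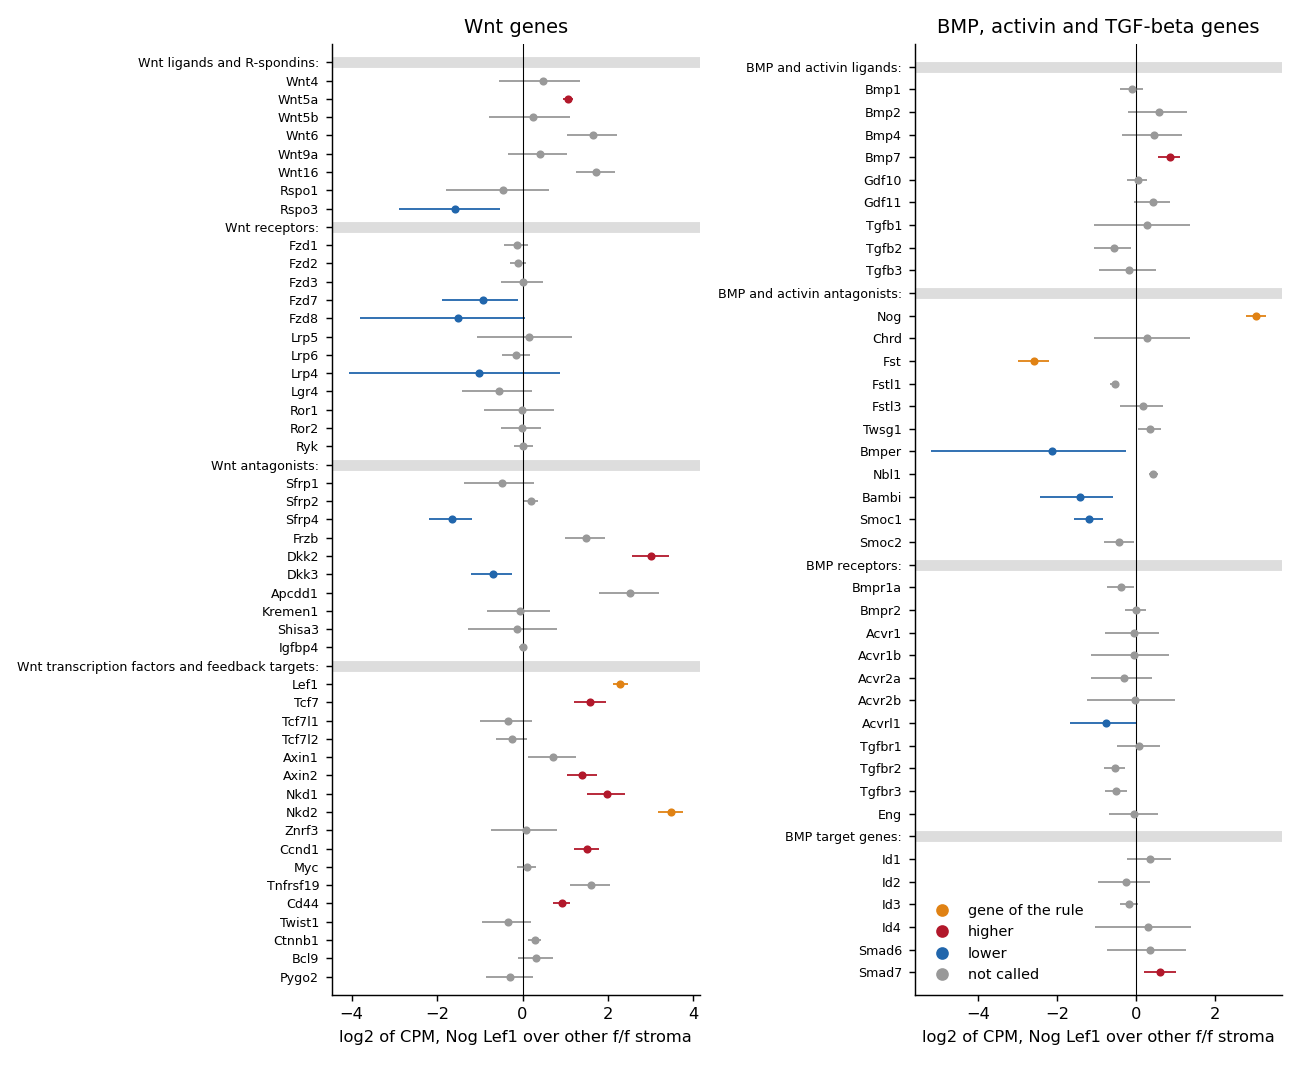
Log2 of the CPM in Nog Lef1 stroma over that in other f/f stroma (x axis) for each Wnt gene (left) and each BMP, activin or TGF-β gene (right) with at least 100 UMIs in stroma, grouped by role down the page. Points are ratios of summed UMIs with 95% intervals, orange for genes of the rule, red for higher, blue for lower and grey for neither. The red points are Wnt5a, Dkk2, Tcf7, Axin2, Nkd1, Ccnd1 and Cd44 on the left and Bmp7 and Smad7 on the right.

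Of 11 measured Hox genes, 4 were higher and 0 lower than in all other stroma, with a median of 0.72, beside 1.36% higher and a median of 0.05 over all genes. Against the Scnn1b Slc6a2 set alone, 1 of 7 was higher (Hoxd8) and 0 lower, with a median of 0.38. Over all genes, 1.07% were higher than in that set. All 4 Hox genes called against all other stroma belonged to the Hoxd cluster, which patterns the posterior body and genital tract. Hoxd10 had 185 CPM (161 to 212) in members and 113 CPM (109 to 117) in other stroma, and Hoxd11 had 248 CPM in members and 160 CPM in other stroma. Hoxd9 had 131 CPM in members and 78.4 CPM in other stroma, and Hoxd8 had 56.8 CPM in members and 34.4 CPM in other stroma. Neighbouring Hox genes overlap, and whether the counting used strand is not given in the sources used here. Hoxa9 had 122 CPM in members and 93.1 CPM in other stroma and was not called. Of 32 other mesenchymal transcription factors, 4 were higher and 7 lower, with a median of -0.06. Over all genes 1.36% were higher and 9.50% lower. Tbx3, a T-box repressor, had 182 CPM in members and 84.8 CPM in other stroma. Ebf1, a factor of mesenchymal and lymphoid precursors, had 224 CPM in members and 518 CPM in other stroma.

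For matrix genes the shares over all genes, 1.36% higher and 9.50% lower, are the level to read the counts against. Of 18 measured fibrillar and related collagens, 0 were higher and 7 lower, with a median of -0.43. Col1a1 had 1685 CPM in members and 2685 CPM in other stroma, Col1a2 had 1503 CPM in members and 2264 CPM in other stroma, and Col14a1 had 97.6 CPM in members and 198 CPM in other stroma. Of 27 matrix glycoproteins and crosslinking enzymes, 3 were higher and 12 lower, with a median of -0.57. Against the Scnn1b Slc6a2 set alone, 4 of 25 were higher and 5 lower, with a median of -0.03. Over all genes, 1.07% were higher and 3.95% lower than in that set. Thbs1, which encodes thrombospondin-1, had 265 CPM in members and 117 CPM in other stroma, and Sparcl1 had 537 CPM in members and 333 CPM in other stroma. Fbn1, the microfibril protein fibrillin-1, had 146 CPM in members and 318 CPM in other stroma, and Sparc had 950 CPM in members and 1745 CPM in other stroma. Of 20 basement membrane genes measured beyond Col7a1, 2 were higher and 1 lower, with a median of 0.01. Against the Scnn1b Slc6a2 set alone, 0 of 19 were called, with a median of 0.05. Col18a1 had 647 CPM in members and 386 CPM in other stroma, and Col4a6 had 82.5 CPM in members and 54.1 CPM in other stroma, while Postn, or periostin, had 63.9 CPM in members and 156 CPM in other stroma.

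Genes of adventitial-like fibroblasts had the lowest median of the lists with at least 5 measured genes. Of 15 measured, 0 were higher and 11 lower, with a median of -1.01. Against the Scnn1b Slc6a2 set alone, 0 of 11 were higher and 3 lower, with a median of -0.38. Over all genes, 1.07% were higher and 3.95% lower than in that set. Besides Ly6a the adventitial-like genes included Ly6c1, with 16.0 CPM in members and 63.6 CPM in other stroma, and Mfap5, with 200.4 CPM in members and 414 CPM in other stroma. Cd34 had 172 CPM in members and 301 CPM in other stroma. The summed level of the adventitial-like genes was 1547 CPM in members, 2093 CPM in the Scnn1b Slc6a2 set and 3176 CPM in the Angptl7 Hhip set. Of 18 genes of tachykinin, peptide and G protein signalling, 2 were higher and 5 lower, with a median of 0.09. Their summed level was 1392 CPM in members and 1789 CPM in other stroma. Over all genes 1.36% were higher and 9.50% lower than in other stroma. Of 13 chemokines and cytokines, 1 was higher and 7 lower. Cxcl14 had 157 CPM (135 to 182) in members and 62.2 CPM (59.4 to 65.2) in other stroma, whereas Cxcl12, an attractant of lymphocytes, had 62.1 CPM in members and 171 CPM in other stroma. Of 14 complement genes 0 were higher and 7 lower, and of 18 interferon-response genes 0 were higher and 7 lower, beside 9.50% lower over all genes. Against the Scnn1b Slc6a2 set alone, 0 of 7 complement genes and 0 of 12 interferon-response genes were called, and of 5 chemokines and cytokines 1 was higher and 0 lower. Igfbp5 had 693 CPM in members and 407 CPM in other stroma, while Igfbp3 had 78.0 CPM in members and 218 CPM in other stroma.

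Of 12 measured steroid receptors and cofactors, 0 were called, with a median of 0.04. Pgr, the progesterone receptor, had a median of 1 and a highest value of 11 UMIs per member, at 247 CPM (219 to 278) in members and 263 CPM (257 to 269) in other stroma. Esr1, the estrogen receptor, had 336 CPM (303 to 372) in members and 257 CPM (251 to 263) in other stroma. Of 18 genes that write, erase or read m6A, 0 were called, with a median of 0.14, and Mettl14 had 13 UMIs in members, or 11.5 CPM (6.14 to 19.7), against 14.9 CPM in other stroma. Of 25 proliferation genes 0 were called, although at least 3 of 8 cycling genes were found in 12.3% of members (7.47% to 18.8%) and 6.94% of other stroma. After thinning to 2000 UMIs these shares were 4.83% of members and 3.60% of other stroma. Without the cycling barcodes, 137 genes were higher and 1065 lower. Against the Scnn1b Slc6a2 set alone, with all barcodes, 2 of 20 proliferation genes were higher and 0 lower. Their median was 0.26, and 1.07% of all genes were higher than in that set.

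Markers of other cell types were summed to see how much foreign RNA the members held. Epcam, Ptprc, Pecam1 and Myh11 are among these markers. The stroma rule fixed them at 0 in members and in other stroma, so they tell nothing here. Markers of epithelium summed to 11.5 CPM in members and 26.6 CPM in other stroma, with Krt19, Krt7, Cdh1 and Cldn7 also at 0 in members. Those of immune cells summed to 26.6 CPM in members and 37.8 CPM in other stroma, with Cd3e and Nkg7 also at 0 in members. Endothelial markers summed to 160 CPM in members and 179 CPM in other stroma, of which Cdh5 gave 127 CPM in members and 149 CPM in other stroma. Smooth muscle markers summed to 386 CPM in members and 403 CPM in other stroma, and pericyte markers to 107 CPM in members and 110 CPM in other stroma. Mesothelial markers summed to 292 CPM in members and 214 CPM in other stroma, nearly all of it Wt1, which stroma also expresses, with Msln, Upk3b and Lrrn4 at 0 in members. Scrublet scores marked 2 members (1.37%) and 133 barcodes of other stroma (3.35%) as likely doublets. Single barcodes can carry such a sum: 1 member held 68 of the 87 UMIs of the pericyte gene Rgs5 (78.2%). The histone genes Hist1h2ap and Hist1h2ae, which were called against the Scnn1b Slc6a2 set, had 32.4% and 34.3% of their UMIs in 1 member. Leaving out, for each gene, the member with the most of its UMIs gave 101 higher genes, against 146 with all members, and 1670 lower genes, against 1022. Because this removes UMIs from the members alone, it also lowers the median gene to -0.07 on the log2 scale. The part of these barcodes in the other results was not tested.

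The rival sets differed in how near they stood to the members. Against the Angptl7 Hhip set, 219 of 9374 genes (2.34%) were higher and 862 (9.20%) lower. Against the Scnn1b Slc6a2 set, 87 of 8123 genes (1.07%) were higher and 321 (3.95%) lower. These counts rest on different numbers of UMIs and are not a measure of distance. The members were higher than both sets in 71 genes and lower than both in 246. The genes tested against both sets were not counted, so no share is given. Of the 71, 67 were also higher than in all other stroma. The 71 include Rgs5, with 68 of its 87 UMIs in 1 member. The 5 Wnt feedback and transcription genes called against all other stroma were also called against each set, with smaller differences from the Scnn1b Slc6a2 set. Axin2 had 68.3 CPM in members, 37.4 CPM in the Scnn1b Slc6a2 set and 16.3 CPM in the Angptl7 Hhip set. Rxfp1 had 361 CPM in members, 166 CPM in the Scnn1b Slc6a2 set and 63.4 CPM in the Angptl7 Hhip set.

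The matrix genes split the comparison. Col1a1 had 1685 CPM in members, 1622 CPM in the Scnn1b Slc6a2 set and 2766 CPM in the Angptl7 Hhip set, so the members stood beside the Scnn1b Slc6a2 set. Of 17 fibrillar collagens, 0 were higher and 1 lower against the Scnn1b Slc6a2 set, with a median that rounds to 0, against 0 higher and 7 lower with a median of -0.48 against the Angptl7 Hhip set. Fbn1 had 146 CPM in members, 226 CPM in the Scnn1b Slc6a2 set and 392 CPM in the Angptl7 Hhip set. Each of the next 3 genes was also called against the Scnn1b Slc6a2 set, and by a smaller fold than against the Angptl7 Hhip set. Dkk2 had 55.0 CPM in members, 7.61 CPM in the Scnn1b Slc6a2 set and 4.98 CPM in the Angptl7 Hhip set. Tpbg, an inhibitor of Wnt reception in zebrafish, had 68.3 CPM in members, 20.9 CPM in the Scnn1b Slc6a2 set and 13.8 CPM in the Angptl7 Hhip set. Steap4, a metalloreductase, had 35.5 CPM in members, 102 CPM in the Scnn1b Slc6a2 set and 138 CPM in the Angptl7 Hhip set.

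Genes already named as high or low in members were also read by the margin between Nog Lef1 markers and the rival lists, as a description. Among barcodes with at least 2 of the 5 markers, Rxfp1 had 173 CPM at 2 or 3 genes fewer than the rival list, 208 CPM at 1 fewer, 262 CPM at a tie, 321 CPM at 1 more and 481 CPM at 2 more. Wnt5a had 327 CPM, 330 CPM, 423 CPM, 561 CPM and 605 CPM at the same steps. Dkk2 had 6.81 CPM and 9.09 CPM on the rival side, 22.8 CPM at a tie, and 49.0 CPM and 77.6 CPM among members. Ctla2a ran the other way, with 2001 CPM, 1650 CPM, 1438 CPM, 1346 CPM and 888 CPM. Gpx3, named as low in members, had no such order, with 61.6 CPM, 56.4 CPM, 40.5 CPM, 53.9 CPM and 77.6 CPM. Pgr had between 241 and 266 CPM at these steps. The order did not continue for every gene in the 7 members at 3 more, where Rxfp1 had 17 UMIs or 360 CPM (210 to 576), Dkk2 2 UMIs or 42.3 CPM (5.13 to 153), and Wnt5a 762 CPM. The 5 steps drawn held 284, 275, 192, 99 and 39 barcodes, with a median of 9165, 8145, 7273.5, 7528 and 6854 UMIs, so the steps also differed in depth, whose part in these levels was not tested. By the number of markers that a member held, the order differed between genes. Dkk2 had 38.0 CPM in members with 2 markers, 111 CPM with 3, 48.9 CPM with 4 and 32.2 CPM with 5. Rxfp1 had 253 CPM, 430 CPM, 360 CPM and 343 CPM in the same members. Prdm1 had 165 CPM (87.7 to 282), 171 CPM (120 to 236), 279 CPM (234 to 330) and 346 CPM (286 to 414). The intervals of neighbouring steps overlapped, and those of the first and last did not.

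**Figure D4:**
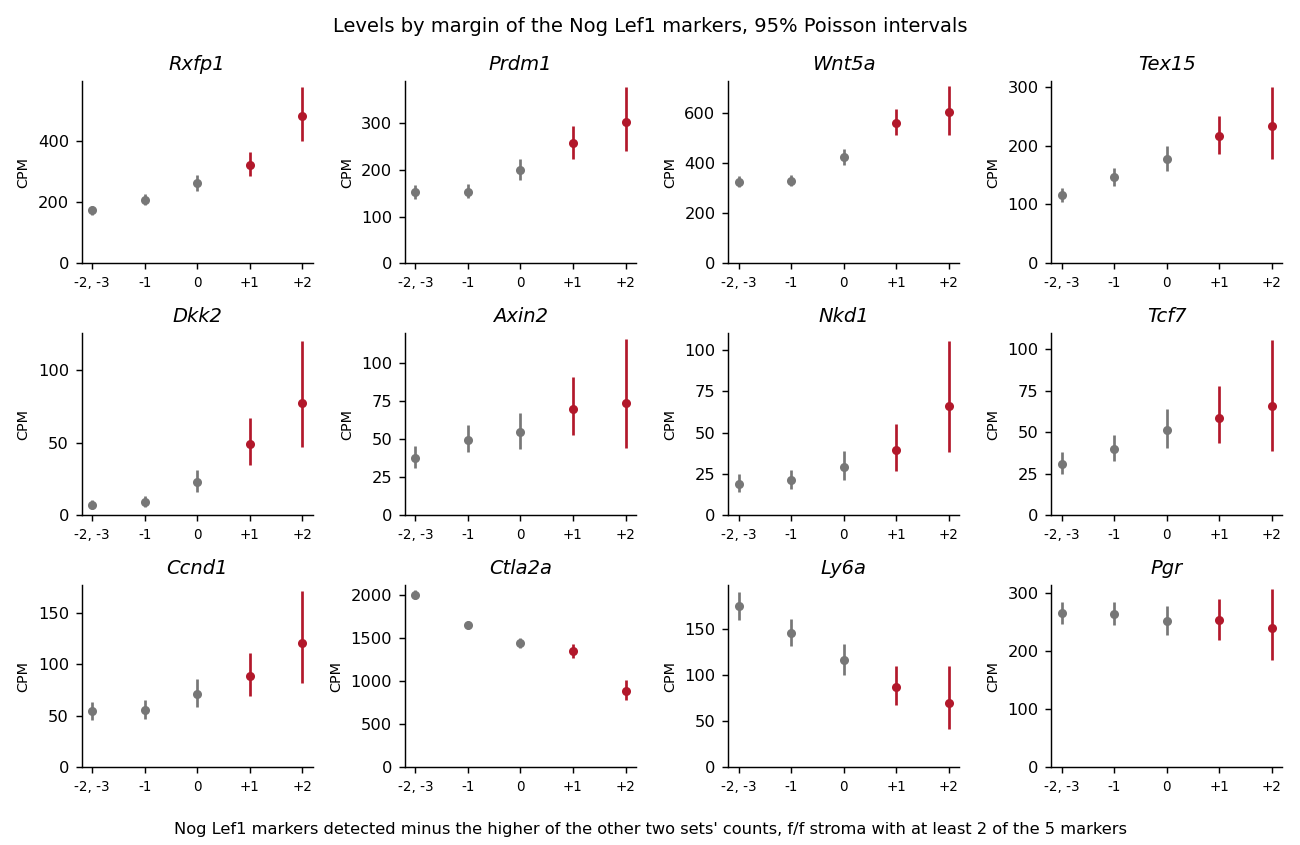
CPM of 12 genes outside the rule (y axis, a panel per gene) by the number of Nog Lef1 markers detected minus the higher count of the 2 rival lists (x axis), in f/f stroma with at least 2 of the 5 markers. Points are summed UMIs with 95% Poisson intervals, grey for barcodes outside the set (284, 275 and 192) and red for members (99 and 39). Rxfp1 stood at 173 CPM at the left end and 481 CPM at the right end, while Pgr stood at 266 CPM and 241 CPM.

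Pairs of genes were also counted in all f/f stroma at 2000 UMIs, members included. The genes paired were those of the rule or had been named from these same cells, so this too is a description. Lef1 was found in 37.0% of 154 barcodes with Nog and in 9.91% of 3795 barcodes without it. Rxfp1 was found in 33.7% of barcodes with Lef1 and 15.1% of those without it, and Tex15, a gene best known from the germ line, in 27.3% of barcodes with Lef1 and 9.07% of those without it. Axin2 was found in 11.0% of barcodes with Nog and 5.16% of those without it, and in 7.39% of barcodes with Lef1 (5.11% to 10.3%) and 5.15% of those without it (4.44% to 5.93%). Dkk2 was found in 2.60% of barcodes with Nog and 1.77% of those without it, and in 1.77% of barcodes with Nkd2 and 1.80% of those without it, but in 4.39% of barcodes with Lef1 and 1.48% of those without it. Hhip was rarer beside the markers, in 2.77% of barcodes with Lef1 and 7.37% of those without it.

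The rule found 41 members among 1414 stromal barcodes of the Mettl14 d/d library, which is 2.90% (2.09% to 3.91%), against 3.54% in the f/f library. The d/d members were deeper, with a median of 10079 UMIs against 7136 in f/f members. At 2000 UMIs per barcode the rule kept 17 of 1371 d/d stromal barcodes (1.24%, 0.724% to 1.98%), against 105 of 3949 f/f stromal barcodes (2.66%, 2.18% to 3.21%). The rival genes were also scarcer in d/d stroma, where at that depth 5.91% of barcodes met the Angptl7 Hhip rule, against 38.0% in f/f stroma, so the same rule met a different background in each library. Lef1 was seen in 1.24% of thinned d/d stroma and 10.0% of thinned f/f stroma, while Nkd2 was seen in 3.21% of d/d and 3.14% of f/f stroma. With 41 barcodes from 1 library, the levels are set side by side and no gene is called.

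Within the d/d library, 16 of the 20 genes that ranked highest in the f/f members stood above d/d other stroma in d/d members, 11 of them without overlap of the intervals, and 1 stood below without overlap (Fxyd6, 21.6 CPM in d/d members and 51.2 CPM in d/d other stroma). Of the 20 lowest, 19 stood below d/d other stroma without overlap, and Plce1 had 33.6 CPM in d/d members and 33.0 CPM in d/d other stroma. The share of all genes without overlap in the d/d library was not counted. These counts therefore describe the named genes only and are no test of the f/f result. Dkk2 had 120 CPM (89.1 to 158) in d/d members and 12.7 CPM in d/d other stroma, against 55.0 CPM in f/f members and 6.85 CPM in f/f other stroma. Rxfp1 had 110 CPM in d/d members and 31.0 CPM in d/d other stroma, against 361 CPM in f/f members and 108 CPM in f/f other stroma. Prdm1 and Gatm likewise stood above d/d other stroma, with 137 CPM in d/d members and 44.3 CPM in d/d other stroma for Prdm1, and 118 CPM in d/d members and 21.7 CPM in d/d other stroma for Gatm.

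Set side by side, the members of the 2 libraries differed in the levels of several Wnt genes outside the rule, given below. The rule genes Lef1 and Nog helped to choose the members in each library, so their levels are a description only. Lef1 had 60.0 CPM (38.8 to 88.6) in d/d members and 293 CPM (262 to 326) in f/f members, and Nog had 79.2 CPM in d/d members and 152 CPM in f/f members. Ccnd1 had 19.2 CPM (8.29 to 37.8) in d/d members and 99.3 CPM (81.8 to 120) in f/f members. Axin2 had 84.0 CPM (58.5 to 117) in d/d members and 68.3 CPM (53.9 to 85.4) in f/f members, so their intervals overlapped. Wnt5a had 972 CPM in d/d members and 582 CPM in f/f members, and Wnt4 had 110 CPM (80.9 to 147) in d/d members and 9.76 CPM (4.87 to 17.5) in f/f members. Cyp1b1 had 0 UMIs in d/d members, which allows up to 7.20 CPM, against 85.1 CPM in f/f members. Differences of the same direction were seen in the other stroma of the same library: Lef1 had 4.12 CPM in d/d other stroma and 59.8 CPM in f/f other stroma, and Cyp1b1 had 3.18 CPM in d/d other stroma and 30.1 CPM in f/f other stroma.

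**Figure D5:**
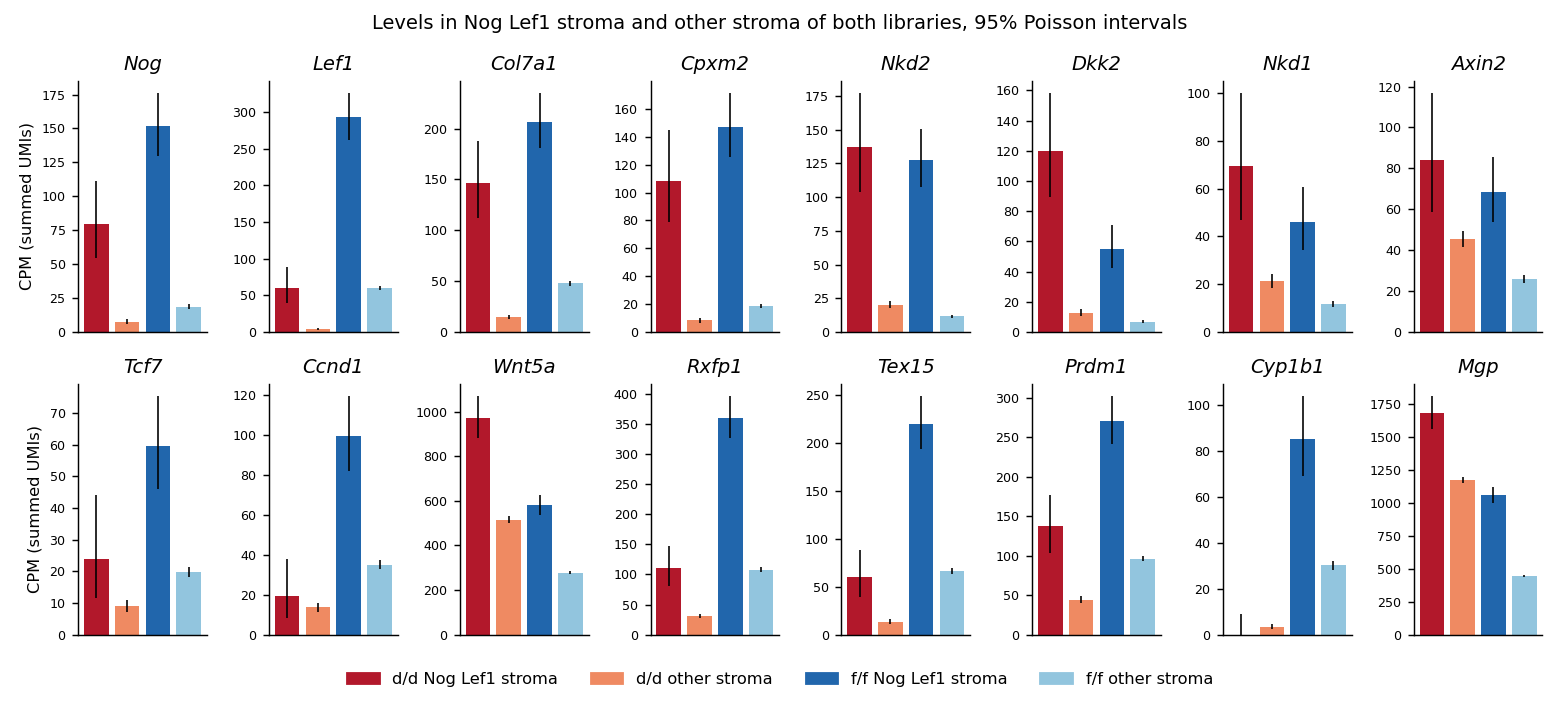
CPM (y axis) of 16 genes, a panel each, in d/d Nog Lef1 stroma (41 barcodes), d/d other stroma (1373), f/f Nog Lef1 stroma (146) and f/f other stroma (3976), with 95% Poisson intervals. The first 5 panels are the genes that chose the members. Lef1 stood at 60.0 CPM in d/d members and 293 CPM in f/f members, and Dkk2 at 120 CPM in d/d members and 55.0 CPM in f/f members.

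Mettl14 itself had 2 UMIs in d/d members, or 4.80 CPM (0.582 to 17.3), against 13 UMIs, or 11.5 CPM (6.14 to 19.7), in f/f members, so a difference was not detectable at this depth. In other stroma it had 2.53 CPM (1.67 to 3.68) in the d/d library and 14.9 CPM (13.5 to 16.4) in the f/f library. A 3′ tag outside the deleted part would be counted all the same, and the position of the deletion is not given in the sources used here. Genes of stress also differed between the libraries. Cdkn1a, the cell cycle inhibitor p21, had 264 CPM in d/d members and 8.87 CPM in f/f members, and 266 CPM in d/d other stroma and 16.7 CPM in f/f other stroma. Fos, an immediate early gene that responds to tissue digestion, had 1114 CPM in d/d members and 222 CPM in f/f members, and its part in the other differences was not tested. Genotype, library and handling cannot be told apart with 1 library each.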

How the data were processed

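Single cells of whole uterus, 1 Mettl14 d/d and 1 Mettl14 f/f library, were counted by droplet 3′ tag sequencing. The matrices the authors deposited hold raw counts of UMIs, not normalized. The submitters' processing notes name Cell Ranger 3.0.1 and mm10, and the file headers cellranger 6.0.1, so the version is unsettled. No barcode in either matrix held fewer than 500 UMIs.

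Barcodes needed 1000 UMIs, 500 genes and no more than 20% mitochondrial UMIs. UMIs were summed per set and scaled to CPM. Sums carry exact Poisson intervals, shares exact Clopper-Pearson intervals and ratios conditional exact intervals, at 95%. Only the ratio intervals were run on simulated sums, drawn as Poisson counts, so variation between barcodes beyond counting error was not covered. A sum of 0 was set to 3 UMIs for a limit, and a share of 0 to 3 barcodes. A gene was measured with 100 UMIs over both sums, and was called at 1.5-fold if its higher sum reached 50. Named genes are those of the rules, Mettl14, Pgr and Esr1, the 20 highest and 20 lowest called genes of each comparison by the interval bound nearest equal levels, with at least 20 CPM, up to 8 of each of 41 lists by that ranking, and any Wnt or BMP gene. Cdh5, Fos, Hoxa9, Sparcl1, Wt1 and the other-cell markers at 0 were chosen after their values were seen. The members and lists were chosen with earlier results of these data known. Clustering used scanpy 1.11.5 (2000 variable genes, 30 components, 15 neighbours) and leidenalg 0.10.2 at resolution 1. Immune barcodes had at least 4 of 8 immune markers and 0 of the 6 stromal ones. Doublets were kept. Scrublet's own threshold marked 0 barcodes of the f/f library, a failure, so the highest scores were marked, at 0.8% per 1000 barcodes. TMM factors came from edgeR 4.0.16. Alternatives were the UMI minimum, 3 markers, doublets or cycling barcodes left out, thinned barcodes, other totals, TMM, no minimum and the rival sets alone. With fewer than 50 d/d members, the planned counts of genes between d/d and f/f members were replaced by levels with intervals.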

Additional observations from a re-analysis of the deposited data

How the results depend on the processing

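The share of members in f/f stroma stayed within its interval with a minimum of 2000 UMIs, with 3 markers and without doublets, and was 2.66% when the rule was read at 2000 UMIs per barcode. The share in d/d stroma was 1.91% with at least 3 markers and 1.24% at 2000 UMIs per barcode, against 2.90%. The 146 higher genes became 92 with TMM, all of them among the 146, and 2342 with no minimum of UMIs. Settings chosen after seeing the data gave 57 higher and 111 lower genes with the whole interval past 1.5-fold, and 141 lower genes with at least 50 CPM in the higher group. Leaving out the member with the most UMIs of each gene, also chosen after seeing the data, gave 1670 lower genes, and the remaining counts were within 1.5 times of 146 and 1022. At 2000 UMIs per barcode 136 genes were higher, 85 of them among the 146, and 1131 lower, 492 of them among the 1022. None of 360 log2 folds of the 40 named genes changed sign in the 9 settings that can move a fold, and 20 left their interval. The 40 were picked in the same data for intervals far from equal levels, so kept signs are a description and no test. The list medians of Wnt feedback genes and Hox genes stayed above 0 in every setting run. Those of collagens, matrix glycoproteins, immediate early and adventitial-like genes stayed below 0. These settings pooled the rival sets. Medians against the Scnn1b Slc6a2 set alone were 0.34 (Wnt feedback), 0.38 (Hox) and -0.38 (adventitial-like). They were -0.005 for collagens, -0.03 for matrix glycoproteins and 0.03 for immediate early genes. Of 21 immediate early and heat shock genes, 0 were higher and 4 lower than in other stroma, beside 9.50% lower over all genes. The median of all genes was -0.05 with TMM, against 0.05. Counts of genes between d/d and f/f members were not run, as 41 d/d members were too few. No paired analysis was possible because each genotype had 1 library. Members held 1127494 UMIs in all, so genes under 50 CPM in members rest on few molecules.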
